A study of Mus musculus with 12 samples.

Results

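The 7 cathepsins Ctss, Ctsh, Ctsc, Ctsb, Ctsl, Ctsd and Ctsz, a family of lysosomal proteases, were followed in pancreatic islets of 12-week-old female NOD mice, a strain that develops autoimmune diabetes, and of NOD.B10 mice of the same age and sex, which share the NOD background, carry another MHC haplotype and stay free of diabetes. Every non-control probe of these genes was taken, which gave 10 of the 41174 probes on the array. RNA of islets cut by laser from frozen pancreas sections, at least 40 islets per pancreas by the study's design text, was amplified, labelled with Cy5 and hybridised against a Cy3-labelled common mouse reference RNA, with 1 array per mouse and 6 mice per strain. Captured islets hold whatever leukocytes lie in or on them, and amplified bulk RNA cannot tell more cells of a type from more RNA per cell. Of the 10 probes, 6 passed the filter, a Cy5 signal that the scanner marked well above background on 4 or more of 12 arrays, so that 6 of the 7 genes were tested among 3920 genes. Both Ctsz probes and the second probes of Ctsb and Ctsd were well above background on no array.

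Cathepsins are made as inactive precursors, reach the lysosome mostly by mannose 6-phosphate tags, and are switched on by its acid. Most are cysteine proteases held in check by cystatins and some serpins, while cathepsin D is an aspartic protease. Cathepsin S is made chiefly by antigen-presenting cells, where it cuts the invariant chain so that MHC class II molecules can take up peptides. Cathepsin C removes dipeptides from the precursors of granule serine proteases in cytotoxic and myeloid cells, cathepsin H trims amino-terminal residues, and cathepsins B, L and D take part in bulk protein breakdown in most cell types. Cathepsin Z is a carboxypeptidase that macrophages make in quantity.

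The 250 bases upstream of the start site were at hand for 5 of the 7 genes (RefSeq, GRCm38.p6), and 4 of these stretches are shown because they place the gene with the largest strain difference beside a second gene that differed and a pair that did not pass. Letters in capitals mark matches to 3 motifs picked after the sequences were read: the interferon-response motif (GAAA, any 2 bases, GAAA) in Ctss (chr3:95526536-95526785, plus strand), GAGGAAGT, a motif of the myeloid and B cell factor PU.1, read on the opposite strand in Ctsc (chr7:88277835-88278084, plus strand), and the E-box core CACGTG, part of an element of many lysosomal promoters, in Ctsd (chr7:142387828-142388077, minus strand) and in Ctsl (chr13:64370521-64370770, minus strand).
Ctss: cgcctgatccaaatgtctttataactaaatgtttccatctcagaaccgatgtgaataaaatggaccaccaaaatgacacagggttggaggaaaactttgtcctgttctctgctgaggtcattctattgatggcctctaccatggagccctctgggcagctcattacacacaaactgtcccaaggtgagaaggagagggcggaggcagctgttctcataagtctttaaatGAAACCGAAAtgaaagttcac
Ctsc: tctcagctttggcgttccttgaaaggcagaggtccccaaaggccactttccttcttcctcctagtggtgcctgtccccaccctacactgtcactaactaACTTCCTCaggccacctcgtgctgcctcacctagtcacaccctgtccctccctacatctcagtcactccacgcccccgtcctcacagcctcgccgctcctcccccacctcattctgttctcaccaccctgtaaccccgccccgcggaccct
Ctsd: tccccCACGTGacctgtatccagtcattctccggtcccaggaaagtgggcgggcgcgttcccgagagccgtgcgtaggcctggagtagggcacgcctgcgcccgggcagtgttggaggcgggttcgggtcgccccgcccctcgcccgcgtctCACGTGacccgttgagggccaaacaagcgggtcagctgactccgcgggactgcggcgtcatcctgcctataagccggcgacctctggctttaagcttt
Ctsl: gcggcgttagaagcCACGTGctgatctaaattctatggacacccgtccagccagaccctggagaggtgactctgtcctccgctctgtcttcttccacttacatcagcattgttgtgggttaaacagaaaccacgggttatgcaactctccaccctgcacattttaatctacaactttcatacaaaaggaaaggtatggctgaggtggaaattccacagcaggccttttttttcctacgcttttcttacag
Counted from 1 at the 5′ end of the printed stretch, the Ctss match lies at 230 to 239, the Ctsc match at 100 to 107, the Ctsd matches at 6 to 11 and 153 to 158, and the Ctsl match at 15 to 20. Both strands were searched, and the motifs do not overlap each other in these stretches. In Ctss a GAGGAAGT match, also on the opposite strand, runs across the start site at 249 to 256, past the end of the printed stretch, and was not counted. Ctsz held none of them. Over 32851 upstream stretches of the same length, 2.98% held the interferon-response motif, 2.44% GAGGAAGT and 6.02% CACGTG. These are matches of letters, and nothing in the arrays reads binding there.

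NOD arrays were the brighter ones in Cy5. The islet signal stood well above background on 10.65 to 17.32% of spots on NOD arrays and on 3.956 to 7.879% on NOD.B10 arrays, with no overlap, so strain and brightness cannot be told apart by a model that holds both. The arrays lay on 4 slides, of which slides 2 and 3 held 2 mice of either strain, slide 1 held NOD replicates 1 and 2, and slide 4 held NOD.B10 replicates 2 and 3, the last read on another scan day. In the reference channel, which should be alike everywhere, the median correlation with the other arrays was 0.974 for NOD replicate 2 and 0.944 and 0.948 for NOD.B10 replicates 2 and 3, against 0.996 to 0.997 for the other 9 arrays (log2 Cy3 over 16345 probes). The cathepsin results are therefore also given without these 3 arrays. Over all genes, limma (Benjamini-Hochberg adjusted p under 0.05) called 735 genes higher in NOD (18.8% of those tested) and 708 lower (18.1%), 36.8% in either direction, with a median log2 change of -0.0059.

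Of the 6 cathepsins tested, 4 rose in NOD islets (Ctss, Ctsh, Ctsb and Ctsc), none fell, and Ctsd and Ctsl did not pass the test. Against this count of 4 stands the 18.8% of all tested genes called higher. The median log2 change of the 6 was 0.99, or 0.92 with Ctsc at the 1.66-fold of its scaled Cy5 signal, beside -0.0059 over all genes. In these 4 genes every NOD mouse lay above every NOD.B10 mouse, a separation that 9.52% of all tested genes showed, while 7.42% were separated the other way. Ctsc stands in both counts, and it entered the test through NOD alone, since only NOD arrays read it well above background. The filter itself favours a rise of such a gene. Changes are log2 differences, NOD minus NOD.B10, of normalised Cy5 to Cy3 ratios, and the ratio on each array is relative to the trend of spots of like brightness. With median centring, the scanner's ratio and net Cy5 the median of all genes moved. Changes there are given relative to it unless called fitted. Adjusted p-values there test the fitted change, before that median was taken off.

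**Figure D1:**
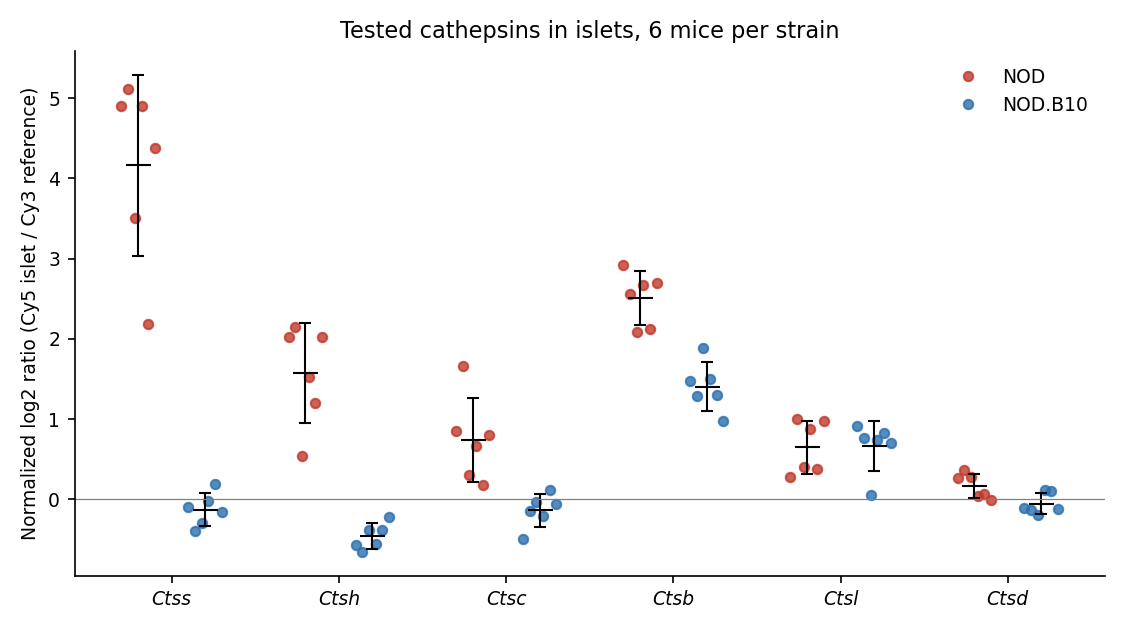
Normalised log2 ratio of islet to reference RNA (vertical axis) for each tested cathepsin, with 1 point per mouse, NOD in red on the left and NOD.B10 in blue on the right of each gene. Bars give the mean and SD of 6 mice. NOD mice lie apart from NOD.B10 mice for Ctss, Ctsh, Ctsc and Ctsb and overlap them for Ctsl and Ctsd.

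Ctss, the cathepsin of antigen-presenting cells, showed the widest gap. Its log2 ratio was 4.90, 5.12, 3.51, 4.90, 2.19 and 4.38 in NOD replicates 1 to 6, against -0.10, -0.40, -0.30, -0.02, 0.19 and -0.16 in NOD.B10 replicates 1 to 6. NOD replicate 5 was the lowest of its strain and lay far above NOD.B10 replicate 5, the highest of the other. The means were 4.17 ± 1.13 in NOD mice, against -0.13 ± 0.21 in NOD.B10 mice (SD, n = 6 each), a log2 change of 4.30 ± 0.41 (SE; 95% interval 3.41 to 5.19), or 19.6-fold, with a limma adjusted p of 1.85e-05. This was the largest rise of the 3920 genes under this scaling, but not under every other: with the smaller background offset Ptprc (4.73) lay above Ctss (4.00), and with median centring Lyz2 (3.92) lay above it (3.38).

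Before any scaling, the net Cy5 signal of Ctss ran from 216 to 2942 scanner units on NOD arrays and from 3.94 to 33.0 on NOD.B10 arrays. It was well above background on 6 NOD arrays and on 5 NOD.B10 arrays. As a share of the Cy3 signal of the same spot it was 3.53 to 73.9% in NOD and 0.0806 to 0.640% in NOD.B10. Over 1083 probes bright on all arrays the unscaled Cy5 signal itself differed by a median log2 of 1.65 in favour of NOD.

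The Ctss rise was 4.26 within slide 2 (adjusted p = 0.0392) and 3.27 within slide 3 (0.213), each from 2 mice per strain, and 3.76 with slide as a fixed term (0.000812). Without the 3 arrays whose reference channel stood apart it was 4.00 (0.00115). With the share of bright spots as a covariate it was 2.00 and did not pass (0.485), and 3 genes over the whole array were then called higher, against 735 without it.

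**Figure D2:**
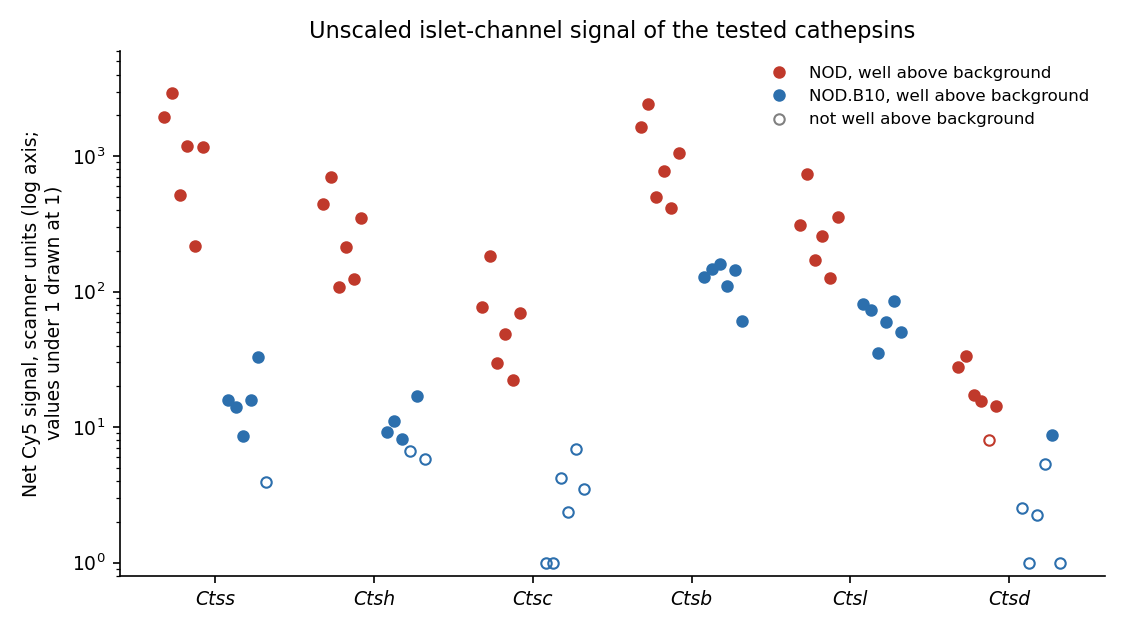
Net Cy5 signal in scanner units on a log axis, with no scaling between arrays, for the 6 tested cathepsins. Each point is 1 mouse, NOD in red left of NOD.B10 in blue, and open points were not well above background. NOD arrays were the brighter ones. All NOD points lie above all NOD.B10 points for Ctss, Ctsh, Ctsc, Ctsb and also Ctsl, whose normalised log2 change was -0.014. The share of all genes separated in this unscaled signal was not computed. For Ctsd NOD replicate 5 (7.98) lies below NOD.B10 replicate 5 (8.76). Medians were 1184 and 14.9 units for Ctss in NOD and NOD.B10.

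Ctsh, the aminopeptidase, rose as well. Its log2 ratio was 0.54 to 2.14 in NOD, with a median of 1.77, and -0.65 to -0.22 in NOD.B10, with a median of -0.47. NOD replicate 3, at 0.54, was the mouse nearest to the NOD.B10 range. The means were 1.58 ± 0.62 in NOD mice, against -0.46 ± 0.16 in NOD.B10 mice (SD, n = 6 each), a log2 change of 2.03 ± 0.24 (SE; 95% interval 1.52 to 2.55), or 4.10-fold (limma adjusted p = 7.5e-05), rank 64 among rises. Net Cy5 was 109 to 703 scanner units in NOD and 5.84 to 17.1 in NOD.B10, where 4 arrays read it well above background. The change was 1.59 within slide 2 (adjusted p = 0.101) and 1.92 within slide 3 (0.148), 1.75 with slide as a fixed term (0.00132) and 1.89 without the 3 arrays (0.00267). With the share of bright spots as a covariate it was 0.975 (0.69).

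Ctsc, the activator of granule serine proteases, was well above background on all 6 NOD arrays and on none of the NOD.B10 arrays. Its log2 ratio was 0.18 to 1.66 in NOD, with a median of 0.74, and -0.49 to 0.12 in NOD.B10, with a median of -0.10. The ranges lay close, since NOD replicate 5 at 0.18 and NOD.B10 replicate 5 at 0.12 differed little. Means were 0.74 ± 0.52 in NOD mice, against -0.14 ± 0.21 in NOD.B10 mice (SD, n = 6 each). The fitted log2 change was 0.88 ± 0.21 (SE, 95% interval 0.42 to 1.34, limma adjusted p = 0.00599). Its scaled Cy5 signal was 1.66-fold higher in NOD. This fold is no detection bound, because the scaled NOD.B10 signals already lay above the floor used for such a bound. With slide as a fixed term the fitted change was 0.648 and missed the threshold (0.0535). Within slides it was 0.836 (0.147, slide 2) and 0.461 (0.493, slide 3), without the 3 arrays 0.721 (0.0202), and with the share of bright spots as a covariate it turned to -0.27 (0.913). Of the 12 granule proteases listed as its clients none was tested. Gzmb, the granzyme of cytotoxic lymphocytes, was well above background on 3 NOD arrays and on 0 NOD.B10 arrays.

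Ctsb, a widely expressed protease that acts as endopeptidase and dipeptidase, was read well above background in every mouse. Its log2 ratio was 2.09 to 2.92 in NOD, with a median of 2.61, and 0.97 to 1.89 in NOD.B10, with a median of 1.38. The lowest NOD mouse, replicate 3, lay just above the highest NOD.B10 mouse, also replicate 3. The means were 2.51 ± 0.33 in NOD mice, against 1.40 ± 0.30 in NOD.B10 mice (SD, n = 6 each), a log2 change of 1.104 ± 0.175 (SE; 95% interval 0.73 to 1.48), or 2.15-fold (limma adjusted p = 0.000477), rank 238 among rises.

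This rise depended on how the signals were scaled. It was 0.0351 with a smaller background offset (adjusted p = 0.923) and 0.692 with Cy5 alone (0.0062). The fitted change was 0.452 with the scanner's own processed ratio (0.174) and 2.7 with median centring (1.03e-05). Relative to the median of all genes these were -0.0252 and 2.27. With net Cy5 centred on the bright probes it was 1.04 relative to that median, where the fitted change passed (0.00543). The Ctsb spot was among the bright ones in the reference channel, with net Cy3 of 37095 to 44992 scanner units on NOD arrays and 31594 to 65734 on NOD.B10 arrays, and Cy5 was 0.914 to 6.19% of it in NOD and 0.156 to 0.375% in NOD.B10. Within slide 2 the change was 0.894 (0.157) and within slide 3 1.27 (0.21), and without the 3 arrays it was 1.19 (0.00361).

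Ctsl, the endopeptidase that handles the invariant chain in thymic epithelium, had a log2 ratio of 0.28 to 1.00 in NOD, with a median of 0.64, and of 0.05 to 0.91 in NOD.B10, with a median of 0.75. The strains overlapped throughout. Its log2 change was -0.014 ± 0.18 (SE; 95% interval -0.39 to 0.36; limma adjusted p = 0.959). The direction went with the scaling. The fitted change was -0.74 with the smaller offset (adjusted p = 0.0167) and 1.42 with median centring (0.000588), both past the threshold and opposite. It was -0.291 with the scanner's ratio (0.369) and 0.0631 with Cy5 alone (0.754). Relative to the median of all genes, it was 0.983 with median centring and -0.768 with the scanner's ratio. Without the 3 arrays it was -0.211 (0.403).

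Ctsd, the aspartic protease of lysosomes, gave a weak signal, well above background on 5 NOD arrays and 1 NOD.B10 array. Its log2 ratio was -0.0061 to 0.36 in NOD, with a median of 0.17, and -0.19 to 0.12 in NOD.B10, with a median of -0.11. The upper NOD.B10 mice, replicates 4 and 5, lay among the lower NOD mice. The log2 change of 0.22 ± 0.10 (SE; 95% interval 0.0054 to 0.44) did not pass limma (adjusted p = 0.0994), although it did with Cy5 alone (0.218, adjusted p = 0.0207). With the scanner's ratio the fitted change of 1.36 passed (0.0439), and it was 0.881 relative to the median of all genes. With median centring the change was 0.218 as fitted (0.296) and -0.218 relative to that median. Without the 3 arrays it was 0.129 (0.483). Ctsz had net Cy5 signals of at most 4.90 scanner units on NOD arrays and 6.11 on NOD.B10 arrays for either probe, so a strain difference was not detectable at this brightness.

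**Figure D3:**
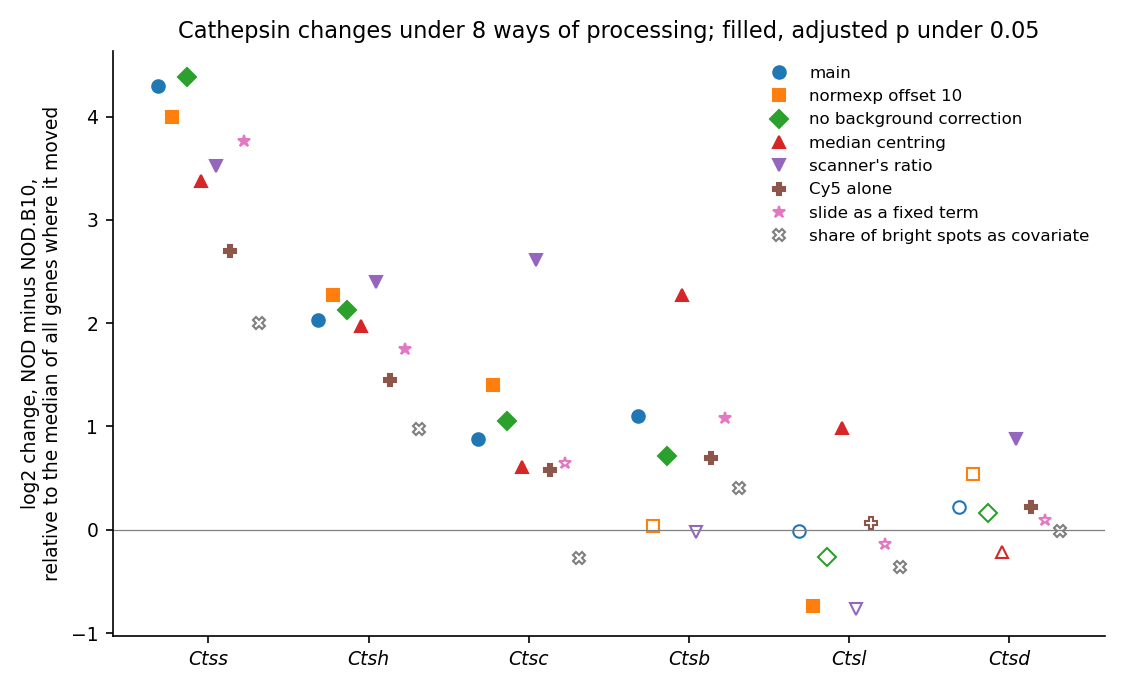
Log2 change, NOD minus NOD.B10, of each tested cathepsin under 8 ways of processing, relative to the median of all genes where that moved. Filled symbols passed an adjusted p of 0.05, which tests the fitted change before that median was taken off. Ctss and Ctsh stay above 0 in all 8, from 2.00 to 4.38 and from 0.975 to 2.40, while Ctsb, Ctsc, Ctsl and Ctsd each cross 0 in at least 1.

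The change of Ctss was larger than those of Ctsh, Ctsb and Ctsl. Within each array the log2 ratio of Ctss minus that of the other gene was taken, which removes what the 2 spots share, and its strain difference was tested by exact 2-sided permutation over all 924 assignments of the arrays. Against Ctsh this difference was 2.59 ± 0.85 in NOD mice, against 0.33 ± 0.23 in NOD.B10 mice (SD, n = 6 each), so the changes differed by 2.26. Against Ctsb the values were 1.66 ± 0.87 and -1.53 ± 0.40, a difference of changes of 3.19. Against Ctsl they were 3.51 ± 0.99 and -0.80 ± 0.29, a difference of 4.31. In these 3 pairs every NOD mouse lay above every NOD.B10 mouse, and each exact p was 0.00216, the smallest possible, also when adjusted over all 5 pairs computed. Against Ctsc and Ctsd the fitted changes differed by 3.42 and 4.07, values given without a test, because 0 and 1 of the NOD.B10 arrays read these genes well above background and their own change may be understated.

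NOD replicate 5 had the smallest excess of Ctss in every pair, down to 0.07 against Ctsb and 0.98 against Ctsh. Without that mouse the differences of changes were 2.58 for Ctsh and 3.51 for Ctsb. Without the 3 arrays they were 2.10 for Ctsh, 2.81 for Ctsb and 4.21 for Ctsl (exact p = 0.0159, 0.0159 and 0.00794). Their size went with the scaling, down to 1.12 for Ctsh with the scanner's ratio (exact p = 0.00866) and to 1.11 for Ctsb (0.00433) and 2.40 for Ctsl (0.00216) with median centring. Within slide 2 they ran from 2.67 (Ctsh) to 4.44 (Ctsl) and within slide 3 from 1.35 (Ctsh) to 3.36 (Ctsl), where 2 mice per strain cannot give an exact p under 0.333. With the scanner's ratio the changes of Ctss and Ctsc differed by 0.911 (exact p = 0.141).

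**Figure D4:**
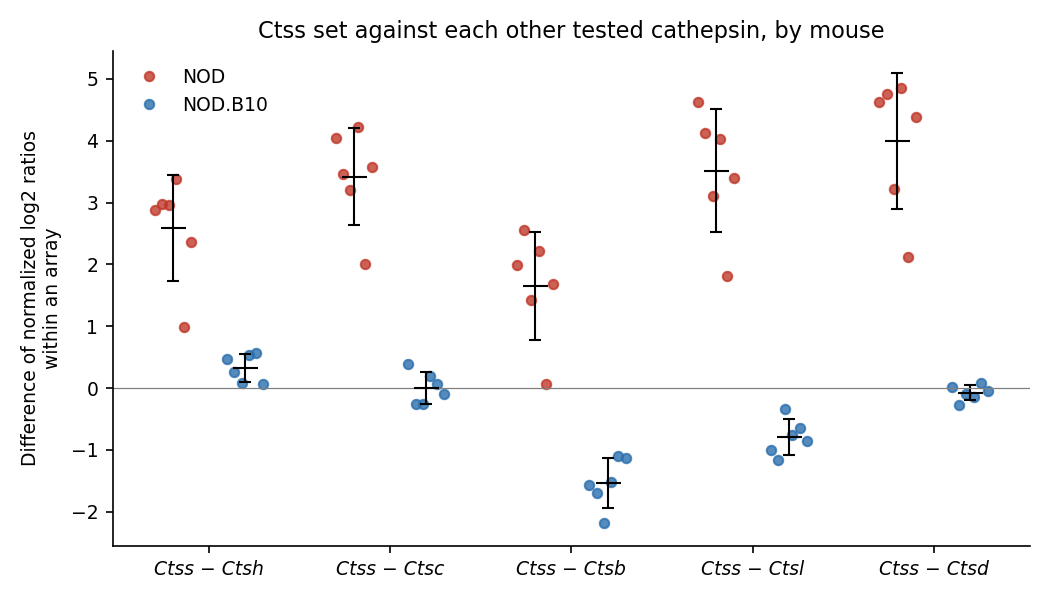
Log2 ratio of Ctss minus that of each other tested cathepsin within an array (vertical axis), 1 point per mouse, NOD in red left of NOD.B10 in blue, with mean and SD of 6 mice. All NOD mice lie above all NOD.B10 mice in the 5 pairs, of which those with Ctsc and Ctsd rest on NOD.B10 signals mostly not well above background, and NOD replicate 5 is the lowest NOD mouse in each.

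Among NOD mice the cathepsins spread unequally. The log2 ratio of Ctss ranged over 2.93 in NOD and 0.59 in NOD.B10, that of Ctsh over 1.61 and 0.43, and that of Ctsc over 1.48 and 0.61, while Ctsb ranged over 0.83 in NOD and 0.91 in NOD.B10. After the mean of each strain was subtracted, over 12 arrays, Pearson's r was 0.733 between Ctss and Ctsc, 0.75 between Ctsc and Ctsh and 0.645 between Ctss and Ctsh, against 0.576 between Ctss and Ctsb, 0.304 between Ctss and Ctsd and -0.141 between Ctsb and Ctsl. These points share arrays and their brightness, and r with the share of bright spots was 0.739 for Ctss, 0.755 for Ctsc, 0.608 for Ctsh, 0.576 for Ctsb, 0.426 for Ctsd and 0.278 for Ctsl.

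By the same within-strain r, the tested genes most like Ctss were Ppm1m (0.962), a phosphatase, Cd74 (0.957), the invariant chain that cathepsin S cuts, and Mfge8 (0.954), a secreted protein that bridges dying cells to phagocytes. Those most like Ctsh were Vpreb3 (0.936), a B-lineage protein, Vcam1 (0.93), an adhesion molecule for leukocytes, and Trp53inp1 (0.922). For Ctsc they were Zfp979 (0.93), Dnajc8 (0.928) and Ccdc88b (0.918), for Ctsb Rps28 (0.88), Cdk2ap2 (0.862) and Ptma (0.85), for Ctsd Commd7 (0.932), Tada1 (0.897) and Eif4e (0.89), and for Ctsl Gtf2e1 (0.835), Smarca4 (0.821) and Nfatc2ip (0.811). Each is the top of 3920 genes over 12 arrays and is given as a description.

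Of 22 other cathepsins and lysosomal proteases 7 were tested, 1 was higher, 1 lower and 5 did not pass, beside 18.8% and 18.1% of all genes, with a median log2 change of -0.05. Ctso, a little-studied cysteine cathepsin, stood at 0.66 ± 0.21 (SE, n = 6 per strain; limma adjusted p = 0.0291), but missed the threshold when any 1 of 7 mice was left out, with slide as a fixed term (0.537, 0.216) and without the 3 arrays (0.597, 0.153), and turned to -0.191 with the scanner's ratio (0.548). Ctse, an aspartic protease of the endosome, was -0.91 ± 0.20 (0.00352), yet missed the threshold with slide as a fixed term (-0.562, 0.0565), with the scanner's ratio (-1.23, 0.208) and with Cy5 alone (-0.07, 0.631), and its median net Cy5 was 22.6 scanner units in NOD and 10.3 in NOD.B10. The tripeptidyl peptidase Tpp1 (log2 -0.34), the carboxypeptidases Cpq (0.16) and Scpep1 (-0.15), legumain, Lgmn (-0.05), and the dipeptidyl peptidase Dpp7 (0.05) did not pass (limma adjusted p = 0.161 to 0.779), and of these Scpep1 passed as lower with the smaller offset (-1.14, 0.0015) and as higher with median centring (0.81, 0.00205). Ctsw, the cathepsin of cytotoxic lymphocytes, was well above background on 2 NOD arrays and 0 NOD.B10 arrays, and Ctsg, Ctsk, Ctsf and Ctsa on none.

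Among inhibitors, 4 of 16 listed genes were tested. Serpinb6b, an intracellular serpin, was the 1 that rose, 2.03-fold at its bound (fitted log2 1.16 ± 0.34, SE, n = 6 per strain, limma adjusted p = 0.018). This call was lost with slide as a fixed term (0.627, 0.0529) and without the 3 arrays (0.933, 0.0809). Only NOD arrays read Serpinb6b well above background, so the filter itself favours its rise. Serpinb1a, an inhibitor of neutrophil proteases, stood at 0.66 and did not pass (0.0746), though it did with the scanner's ratio (2.72, 0.00024). The cystatins that bind cysteine cathepsins lay close to 0, with Cstb at -0.10 (0.756) and Cst3 at -0.03 (0.93), and their sign turned when slide was a fixed term (0.151 and 0.25). The list's median log2 change was 0.31.

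**Figure D5:**
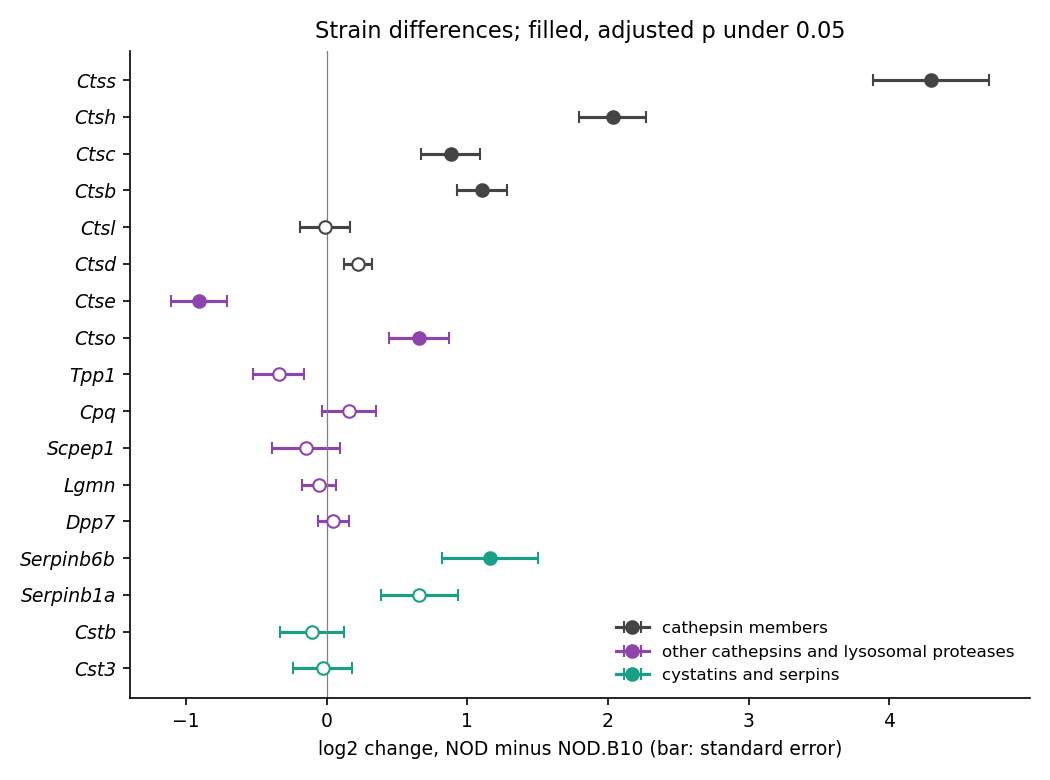
Log2 change, NOD minus NOD.B10, with its standard error (horizontal axis) for the 6 tested cathepsins, 7 other lysosomal proteases and 4 inhibitors. Filled points passed an adjusted p of 0.05. Ctss at 4.30 and Ctsh at 2.03 lie to the right of all other genes drawn, and most other proteases lie near 0; the signs of Ctso, Cpq, Tpp1, Lgmn, Cstb, Cst3, Dpp7, Scpep1, Ctsb, Ctsd and Ctsl turned under at least 1 other scaling or slide model, and those of Ctsc, Ctse, Serpinb6b and Serpinb1a with the share of bright spots as a covariate.

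Genes of the lysosome itself moved in both directions. Of 8 hydrolases tested out of 31 listed, Ids, which removes sulfate from glycosaminoglycans, was lower (log2 -1.24, limma adjusted p = 0.00678), and so was the sphingomyelinase Smpd1 (-0.36, 0.0354). Ids turned to 0.193 with median centring (0.0582) and Smpd1 to 0.0118 with Cy5 alone (0.921). Of 6 membrane and proton pump genes tested, the leukocyte lysosomal protein Laptm5 was 1.70-fold higher at its bound (fitted log2 1.36, 0.00186). The pump subunit Atp6v1d stood at -0.57 (0.0313) and turned to 0.421 with median centring (0.0205). The mannose 6-phosphate receptors M6pr and Igf2r, which carry cathepsins to the lysosome, stood at 0.82 (0.00214) and 0.36 (0.0286). M6pr missed the threshold with the scanner's ratio (0.123, 0.0627) and Igf2r with slide as a fixed term (0.277, 0.184). Over these 5 lists of lysosomal and protease genes, 6 of 29 tested were higher and 4 lower, with a median log2 change of -0.05, beside 18.8% and 18.1% of all genes, and 2 were higher and 3 lower without the 3 arrays. Of the 29, 7 were well above background on NOD arrays only, Laptm5 and Serpinb6b among them. These entered the test through NOD alone, and the filter itself favours a rise among them. None of the 6 listed factors of lysosome biogenesis was tested.

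The MHC class II genes, whose invariant chain is the substrate of cathepsin S, rose in each of the 4 members tested of 11 listed, beside 18.8% of all genes, and no array of NOD.B10 read any of them well above background. All 4 thus entered the test through NOD alone, and the filter itself favours a rise among them. Folds are given at their bounds, which were not checked to be detection bounds. Cd74, the invariant chain, was 4.64-fold higher (fitted log2 3.00 ± 0.61, SE, n = 6 per strain, limma adjusted p = 0.00219). H2-Ab1, which encodes a class II beta chain, was 2.15-fold higher (0.000423) and the peptide exchange chain H2-DMb1 1.33-fold (0.0101). H2-Oa, a chain that restrains peptide exchange, passed (0.00171) with no bound above 1. Their median log2 change was 1.63, or 0.76 with each at its bound, and H2-DMb1 missed the threshold with slide as a fixed term (0.458, 0.128) and without the 3 arrays (0.539, 0.0723), which left 3 class II genes called. With the share of bright spots as a covariate Cd74 stood at -0.287 (0.966). H2-Ab1, H2-DMb1 and H2-Oa lie in the MHC, where the strains differ, and whether their probes bind both haplotypes alike was not tested, which does not concern Cd74 or Ctss. Their summed net Cy5 was 58.7 to 983 scanner units in NOD and -0.974 to 13.4 in NOD.B10.

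Leukocyte markers moved with Ctss, Ctsh, Ctsc and Ctsb. Of the macrophage and dendritic cell list 6 of 7 tested rose, beside 18.8% of all genes, among them lysozyme, Lyz2, by log2 4.05 (limma adjusted p = 4.43e-08), the pore-forming Mpeg1 by 2.16 (5.25e-05) and the complement chain C1qc by 1.72 (0.000221), and the summed net Cy5 of the list was 954 to 5162 scanner units in NOD and 33.1 to 103 in NOD.B10. The defining markers C1qa, C1qb, Cd14 and Itgam were well above background on no array. The same held for Cd79a, Cd22, Pax5 and Blk of the 11 B cell markers listed. It also held for Cd3e, Cd3g, Cd247, Cd2, Cd4, Lck and Zap70 of the 15 T cell markers listed. All 8 pan-leukocyte markers tested rose, among them Ptprc, which encodes CD45, 10.3-fold at its bound. So did 6 of 6 tested B cell markers and 5 of 6 tested T cell markers, again beside 18.8% of all genes. In this order, summed signals were 661 to 5153, 405 to 2967 and 265 to 1557 scanner units in NOD. In NOD.B10 they were 13.0 to 58.0, -0.33 to 15.3 and 2.03 to 51.4. These sums are unscaled, and the NOD arrays were brighter throughout. Of the tested pan-leukocyte, B cell and T cell markers, 7, 6 and 4 were well above background on NOD arrays only. Those genes entered the test through NOD alone, and the filter itself favours a rise among them. Some of the T cell markers that passed had no bound above 1. Without the 3 arrays Lyz2 stood at 3.97 (3.55e-05) and Ptprc at 3.84 (0.000757). The part of leukocytes in the cathepsin rises was not tested.

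Endocrine and exocrine markers went the other way or did not pass. Of 6 beta cell markers tested 3 fell, Ins2 by log2 -3.35 (limma adjusted p = 0.000642; -0.49, 0.868 with median centring), and none rose, beside 18.1% of all genes called lower. Of 7 other endocrine markers 3 fell, among them Gcg (-1.19, 0.0265), which with median centring stood at 0.771 instead. Of 7 acinar markers 5 fell, Amy1 by -4.51 (0.00986), but median centring called 0 genes of the whole array lower, with Amy1 at -1.21 (0.317). Without the 3 arrays Ins2 stood at -3.36 (0.00636) and Amy1 at -5.18 (0.0144), while Gcg missed the threshold. The summed net Cy5 of the beta cell list was 4260 to 32980 scanner units in NOD and 12160 to 31000 in NOD.B10, so the labelled islets carried their defining hormones in both strains. Their part in the cathepsin differences was not tested.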

How the data were processed

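Islet RNA (Cy5) and a common reference RNA (Cy3) were read on 2-colour arrays of 45018 spots, with no dye swap, so dye effects stay in each ratio. NOD arrays were the brighter ones in Cy5, and whether dye effects cancel in strain differences was not tested. Per the file headers, Feature Extraction 10.5.1.1 made the deposited median intensity values per spot, without normalisation. The same deposited files hold the authors' processed intensity values and their log10 ratio, and the values of the deposited series table are log2 ratios of those processed signals, equal within 0.001 for 100% of values compared. Its column medians ran from -0.285 to -0.062. The labels do not state its scale.

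Here normexp (offset 50) and within-array loess were applied to median signals in limma 3.58.1 under R 4.3.3. Median signals replaced the planned means, which the files lack. Probes of a gene were averaged over spots, kept when 4 or more of 12 arrays read Cy5 well above background, and the brightest probe per symbol was tested with lmFit and eBayes, Benjamini-Hochberg adjusted over 3920 genes. Symbols came from RefSeq (GRCm38.p6), which named 24375 of 41174 probes. No array spot was saturated (0 spots). Net Cy5 is the scanner's own background-subtracted signal. Precision is limited by the number of mice and by signal over background. A lower bound replaces the fold of a gene that no array of NOD.B10 read well above background, with each such array set at no less than its 10th percentile of signals well above background. Where the scaled signals already lay above this floor, as with Ctsc, it did not enter, and the value is no detection bound. Which other genes this holds for was not examined.

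Genes named are the cathepsins, every tested gene of the other protease and inhibitor lists, up to 4 of the smallest p passing in other lists (2 where none passes) and the 3 most alike in pattern per cathepsin; untested genes, named for their array counts, were added after their values were seen. A gene that this rule names is not reported here. Members, lists and tests were chosen with earlier results of these data known. The fit recovered known changes when tested on simulated data with independent noise for each gene and array. That simulation held no slide or brightness effect, so it does not test the fit against these. The labels state no pairing of mice by replicate number. Deviations of same-numbered mice correlated between -0.147 and 0.212, which cannot settle whether mice were paired. P-values measure the spread between mice. Alternatives were other background corrections, scalings, filters, slide models, array weights, the share of bright spots, the replicate block and each mouse left out. Leaving out the 3 arrays and the net Cy5 scale were added after the data were seen.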

Additional observations from a re-analysis of the deposited data

Results flagged for a closer look

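Each of the 10 probes was checked for a mouse far from the others of its strain, 20 groups of 6 in all, and chance flags about 1 group in 20. Of these, 2 stood out. The log2 ratio of Ctsl in NOD.B10 replicate 3 was 0.0503, while the nearest NOD.B10 mouse was at 0.696, a gap of 0.751 of the strain's range. Without this mouse the Ctsl change was -0.137. The second Ctsd probe, A_52_P35960, read 0.196 in NOD.B10 replicate 1, with the nearest at 0.0267 (0.661 of the range), on a spot not well above background on any array.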

How the results depend on the processing

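Leaving out each mouse in turn kept the 4 calls and directions, with ranges of 4.10 to 4.69 for Ctss, 1.92 to 2.24 for Ctsh, 1.02 to 1.20 for Ctsb and 0.697 to 0.993 for Ctsc, while Ctsd (0.183 to 0.257) and Ctsl (-0.137 to 0.0605) passed in none. Cathepsins called higher stayed at 4, lysosomal and protease list genes called higher ran from 3 to 8 (lower 2 to 5), all genes higher from 601 to 851 and lower from 577 to 808. With the replicate block no cathepsin call changed (Ctss 4.30, adjusted p = 0.000647; Ctsc 0.88, 0.0187), and list genes called lower fell to 2. The labels state no pairing of mice behind the block's numbers.

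By setting, changes that crossed the threshold or 0 were as follows, and the cause was not tested except where fewer arrays or genes entered. The smaller offset (10) gave Ctsb 0.0351 and Ctsl -0.74, with 3 list genes higher. Median centring moved the median of all genes by 0.436 and gave, relative to it, Ctsd -0.218 and Ctsl 0.983, with 17 list genes higher and 0 lower, and 1978 genes higher and 0 lower in all. The scanner's ratio and the deposited series table moved the median by 0.477 and both gave Ctsb -0.0252, Ctsd 0.881, Ctss minus Ctsc 0.911 and 313 genes lower. Cy5 alone gave Ctsd 0.218, Ctsl 0.0631 and 265 genes lower, and array weights gave Ctsl 0.0565. A filter at all 12 arrays kept only Ctsb and Ctsl of the cathepsins in the test, with Ctsb called higher. It left 1 list gene higher and 2 lower, 0 class II genes, and 162 genes higher and 180 lower. Slide as a fixed term gave Ctsc 0.648, list counts of 2 and 2, and 361 and 354 genes. Without slide 4, 2 list genes were higher.

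Slide 2 alone gave Ctsh 1.59, Ctsb 0.894 and Ctsc 0.836 without passing, 1 cathepsin, 0 list genes either way and 0 class II genes higher, and 38 and 46 genes in all. Its differences of changes from Ctss were 2.67 (Ctsh), 3.37 (Ctsb), 3.42 (Ctsc), 4.10 (Ctsd) and 4.44 (Ctsl). Slide 3 alone gave Ctss 3.27, Ctsh 1.92, Ctsb 1.27 and Ctsc 0.461, 0 cathepsins, list or class II genes, and 1 and 1 genes in all, with differences of 1.35, 2.00, 2.81, 3.23 and 3.36 in the same order. In limma 551 genes had an unadjusted p under 0.05 there, and 724 on slide 2. The share of bright spots as a covariate gave Ctss 2.00, Ctsh 0.975, Ctsb 0.40, Ctsc -0.27 and Ctsd -0.0119, 0 calls in each list, and 3 genes higher and 0 lower (295 at an unadjusted p under 0.05), with differences of 1.02, 1.60, 2.27, 2.01 and 2.35. The 3 arrays left out gave 2 list genes higher, and 418 and 432 genes in all. Net Cy5 alone gave Ctsl 0.242, Ctss minus Ctsd 2.42, 1 list gene lower, 0 class II genes, whose net signals were not above 0 on every array, and 455 and 259 genes. Ctsc, with a net signal of -0.519 in NOD.B10 replicate 1, was left out there for the same reason. The random slide block was not run for differences between cathepsins.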
